A study of Mus musculus with 4 samples.

Results

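The 10 genes described here set the brakes of the cell cycle and carry the p53 response: 5 inhibitors of cyclin-dependent kinases (Cdkn1a, Cdkn1b, Cdkn2a, Cdkn2b and Cdkn2c), p53 itself (Trp53), its inhibitor Mdm2, and 3 genes that p53 induces (Ccng1, Perp and Bax). They were taken by gene symbol from a table of 16416 genes, and all 10 were found. The cells were mouse fibroblasts grown out of the synovial capsule of the shoulder joint, taken 1 week after the joint had been immobilized and used at passage 2. The 4 libraries were from wild-type C57BL6/J cells without transfection, from miR-26a -/- cells without transfection, from miR-26a -/- cells given 10 nM Silencer Negative Control siRNA for 24 h, and from miR-26a -/- cells given 10 nM of a double-stranded miR-26a mimic for 24 h. Both oligonucleotides were delivered with Lipofectamine RNAiMax, so the last 3 libraries share the deletion and the last pair also share the transfection. The sources used here do not give the number or age of the animals behind each culture, nor which of the miR-26a loci was deleted. The labels describe the deletion as present in the mice the cells came from, whereas the mimic was present for 24 h.

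Each group had 1 library, so no difference below has a replicate check and no p-value is given. Levels are in TPM, transcript abundances corrected for transcript length and library total, which can be compared between genes. Differences are log2 ratios of estimated counts scaled between libraries, with a 95% interval that covers counting error only and not the spread between cultures. Genes under 1 CPM, the count scaled to the library total, in both libraries of a comparison were left out of it as not measured. A gene was called higher or lower at a difference of 2-fold or more with an interval that excluded 0. All 10 genes passed the filter in each comparison. Total estimated counts ranged from 17598763 to 19392655 per library.

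Markers of fibroblasts were abundant in all 4 libraries, and so were markers of macrophages. The 14 macrophage markers examined, none of them at 0, summed to 21450 TPM in wild-type cells and to between 29927 and 31100.1 TPM in the 3 knockout-cell libraries. Lyz2, a lysozyme gene, made up most of this sum, and without it the other 13 summed to 6538 TPM in wild-type cells and to between 12109.5 and 12693 TPM in the others. The 13 fibroblast markers, again none at 0, summed to 20979 TPM in wild-type cells and to between 9513 and 11069 TPM in the others. The collagen genes Col1a1, Col1a2 and Col3a1 made up most of this sum. Single markers had log2 ratios of knockout to wild type from -2.67 for Lum to 0.60 for Pdpn, with only Pdpn above 0. Vim had -0.09 and Prrx1 -0.11. A set of 15 genes of cell division, among them Mki67 and Top2a, summed to 174 TPM in wild-type cells and to between 359.6 and 416 TPM in the others. These sums set the 1 wild-type library apart from the knockout-cell libraries, and their part in the ratios to wild type below was not tested. In such bulk libraries, fewer cells of a type and less RNA per cell cannot be told apart.

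As background, cyclin-dependent kinases drive the cell from one phase of its cycle to the next, and 2 families of small proteins hold them back. Inhibitors of the INK4 family bind Cdk4 and Cdk6 and keep them from pairing with D-type cyclins, while those of the Cip/Kip family bind complexes of kinase and cyclin, above all those of Cdk2. The transcription factor p53, stabilized by DNA damage and other stress, induces Cdkn1a, genes of cell death such as Bax and Perp, and also Mdm2, a ubiquitin ligase that marks p53 for destruction and so closes a feedback loop. In fibroblasts put into culture, Cdkn2a, Cdkn2b and Cdkn1a are known to accumulate with passage and to mark senescence. miR-26a is a microRNA, a short RNA whose seed base-pairs with mRNAs, mostly in the untranslated part after the stop codon (3′ UTR), and represses them.

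Of the 10 genes, Perp stood out: its level was more than 2-fold higher in knockout than in wild-type cells and about 2-fold lower in mimic than in negative-control cells. Mdm2, Cdkn2c, Bax and Ccng1 had log2 ratios of knockout to wild type from 0.24 to 0.75, with intervals above 0, and none reached 2-fold. Cdkn1a, Cdkn2b and Trp53 had intervals that included no difference between knockout and wild type. Perp was the only 1 of the 10 called in the comparison of knockout and wild type, where 12.9% of the 12803 measured genes were called in either direction and 5.9% were called higher. In the comparison of mimic and negative control it was again the only one called, among 1.21% of 12512 genes in either direction and 0.352% lower. In that of the mimic and the untransfected knockout it was the only one called, among 0.734% of 12536 genes and 0.471% lower. None of the 10 was called between the negative control and the untransfected knockout, where 1.01% of 12532 genes were. At a limit of 1.5-fold, Cdkn2c joined Perp in the comparison of knockout and wild type, against 24.5% of measured genes in either direction and 11.3% higher. At that limit Perp was still alone with the mimic against the negative control (4.56% of genes in either direction, 1.69% lower) and against the untransfected knockout (2.92%, 1.79% lower), and none of the 10 passed between negative control and untransfected knockout (3.69%). In the knockout comparison the share of the 10 past either limit was near the background, and in the mimic comparisons it rests on 1 gene.

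**Figure D1:**
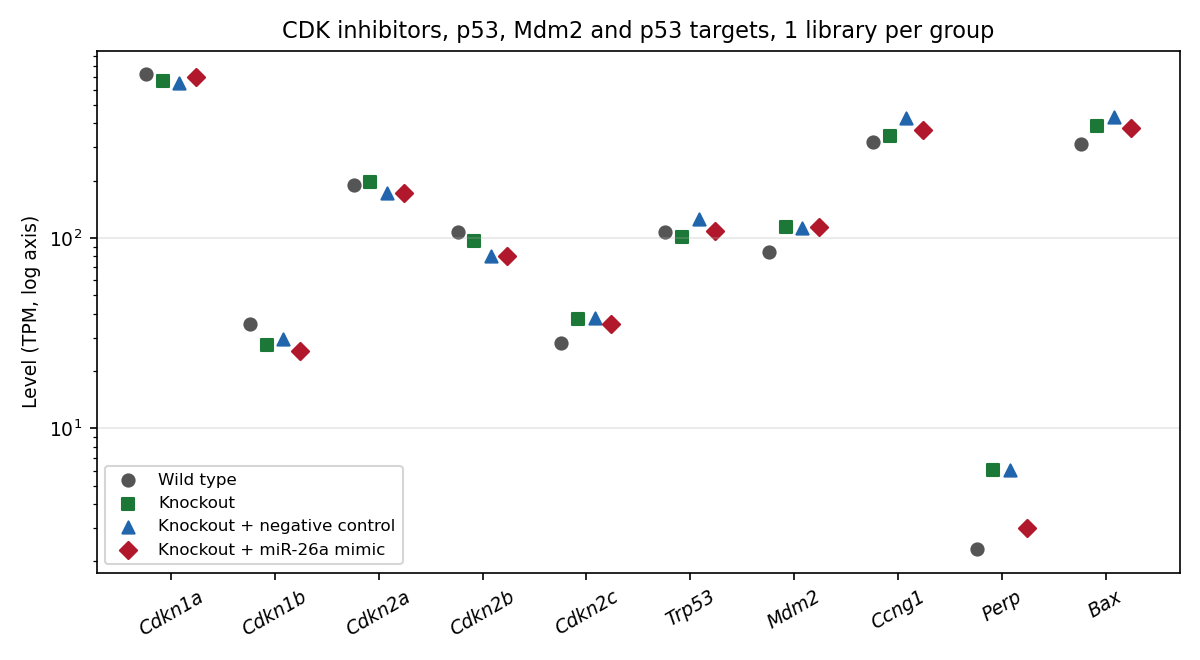
Level of each of the 10 genes in TPM (log axis) in the 4 libraries, 1 point per library and no error bar because each group had 1 library. Cdkn1a, between 652 and 723 TPM, lies at the top, Perp, between 2.33 and 6.05 TPM, at the bottom.

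Among the Cip/Kip inhibitors, Cdkn1a encodes p21, which binds Cdk2 complexes and is the best known mediator of the p53-dependent arrest. It lies at chr17:29090976-29100727 (GRCm38, GENCODE M21 annotation, as for all genes below) and overlaps an antisense transcript that is not in the table. Its level was 723 TPM in wild-type cells, 669 in the knockout, 652 with the negative control and 704 with the mimic. In TPM it was the most abundant of the 10 in every library, with wild type the highest and the negative control the lowest. On scaled counts the mimic was the highest, at 618 CPM against 597 CPM in wild type. The log2 ratio of knockout to wild type was 0.02 (interval -0.02 to 0.06), and that of mimic to negative control was 0.10 (0.07 to 0.14). Cdkn1b encodes p27, which restrains Cdk2 in resting cells and is degraded through Skp2. It lies at chr6:134920401-134925513. Its level was 35.5 TPM in wild-type cells, 27.6 in the knockout, 29.5 with the negative control and 25.5 with the mimic, so that wild type was the highest. The log2 ratio was -0.23 (-0.40 to -0.07) for knockout to wild type and -0.22 (-0.39 to -0.06) for mimic to negative control, both short of 1.5-fold.

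The INK4 inhibitors Cdkn2a and Cdkn2b are neighbours on mouse chromosome 4, at chr4:89274471-89294653 and chr4:89306299-89311039, with 11645 bases between them. Cdkn2a encodes both p16INK4a and, in another reading frame, p19ARF, which binds Mdm2, and a value for the whole gene counts the transcripts of both together. Its level was 189.5 TPM in wild-type cells, 196 in the knockout, 173 with the negative control and 171 with the mimic. The pair of transfected libraries lay below the pair of untransfected ones. The log2 ratio was 0.20 (0.08 to 0.32) for knockout to wild type, -0.01 (-0.13 to 0.11) for mimic to negative control and -0.25 (-0.36 to -0.13) for negative control to untransfected knockout. Cdkn2b, which encodes p15INK4b, an inhibitor known to be induced by TGF-beta, was listed at 107 TPM in wild-type cells, 96.8 in the knockout, 80.8 with the negative control and 80.4 with the mimic. Here too both transfected libraries were the lowest, with log2 ratios to the untransfected knockout of -0.30 (-0.43 to -0.18) for the negative control and -0.32 (-0.45 to -0.19) for the mimic. These 2 ratios share the untransfected knockout library. The log2 ratio of mimic to negative control for Cdkn2b was -0.01 (-0.14 to 0.12), and that of knockout to wild type was -0.01 (-0.13 to 0.11).

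Cdkn2c, at chr4:109660876-109667189, encodes p18INK4c, an inhibitor that is known to be expressed in cycling and differentiating cells. Its level was 28.2 TPM in wild-type cells, 37.8 in the knockout, 38.1 with the negative control and 35.2 with the mimic. Wild type was the lowest and the 3 knockout-cell libraries lay close together. From counts, the log2 ratio of knockout to wild type was 0.75 (0.56 to 0.95), which is between 1.5-fold and 2-fold. From TPM it was 0.42, or 0.53 after taking off the median of all measured genes, which is -0.11 on the TPM scale against 0.01 on scaled counts in this comparison. The cause of the gap between counts and TPM was not tested. The log2 ratio of mimic to negative control was -0.19 (-0.36 to -0.02).

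Summed over 7 inhibitors (Cdkn1a, Cdkn1b, Cdkn1c, Cdkn2a, Cdkn2b, Cdkn2c and Cdkn2d), the pool of transcripts came to 1108 TPM in wild-type cells, 1062 in the knockout, 1004 with the negative control and 1043 with the mimic. In TPM the median log2 ratio of knockout to wild type over all measured genes was itself -0.11, and the sums carry that offset between those libraries. Cdkn1a alone held 65.2%, 63.0%, 64.9% and 67.5% of the pool, in the same order. The 4 INK4 genes summed to 347 TPM in wild-type cells and 364 in the knockout, and to 322 and 313 TPM with the negative control and the mimic. Their target Cdk4 stood at 400.01 TPM in wild-type cells and between 306 and 335 TPM in the other libraries. Their other target, Cdk6, stood at 9.34 TPM in wild-type cells, 12.3 in the knockout, 12.8 with the negative control and 17.1 with the mimic, the highest of the 4. In each library the transcripts of p21 outnumbered those of all other inhibitors of the pool combined.

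**Figure D2:**
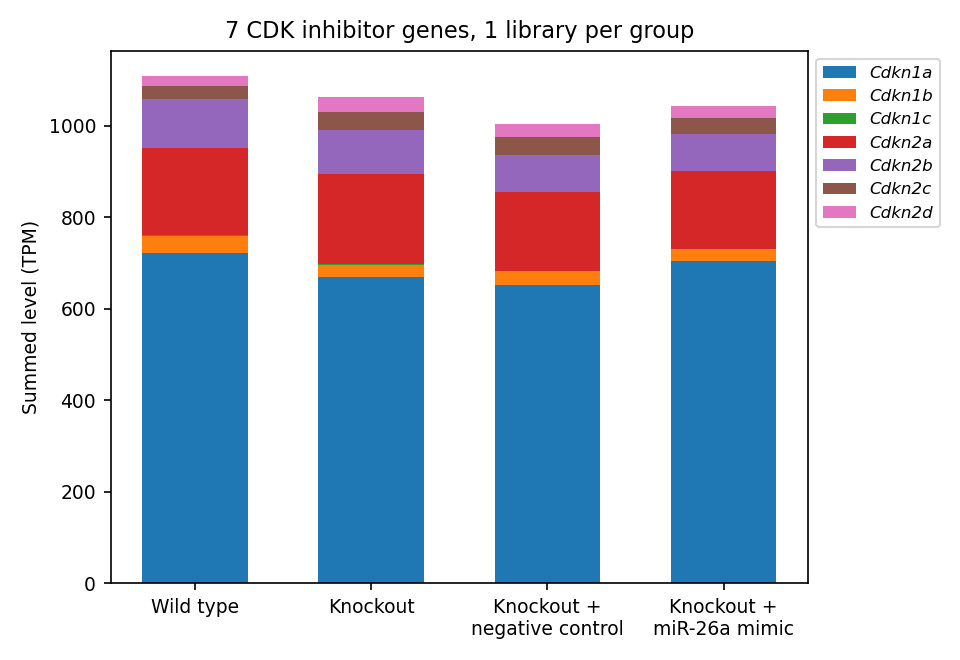
Summed TPM of 7 inhibitors of cyclin-dependent kinases in each of the 4 libraries, stacked by gene, with 1 library per group and no error bar. Cdkn1a makes up between 63.0% and 67.5% of the bar in each library, Cdkn2a follows, and the total runs from 1004 to 1108 TPM.

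The list of other inhibitors held 3 genes. Cdkn3, a phosphatase that acts on cyclin-dependent kinases and is itself transcribed in dividing cells, was called higher in the knockout, at 19.5 against 7.78 TPM (log2 ratio 1.42, 0.89 to 2.03). Of all measured genes, 5.9% were called higher there. Cdkn2d, which encodes p19INK4d, stood at 33.0 against 22.3 TPM (0.70, 0.45 to 0.96). Cdkn1c, which encodes p57 and was named after its values were seen, was called lower with the mimic, on 9 counts against 24 with the negative control (log2 ratio -1.23, -2.61 to -0.16) and 29 in the untransfected knockout (-1.65, -3.02 to -0.64). Of all measured genes, 0.352% and 0.471% were called lower in these comparisons. Cdkn1c was low throughout, at 3.1 TPM in wild-type cells, 1.83 in the knockout, 1.37 with the negative control and 0.56 with the mimic.

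Trp53, which encodes p53, at chr11:69580359-69591873, was listed at 108 TPM in wild-type cells, 101 in the knockout, 126 with the negative control and 108 with the mimic. Only the negative-control library stood above the rest, with a log2 ratio of 0.27 (0.18 to 0.37) to the untransfected knockout. Against the negative control the mimic library was at -0.22 (-0.32 to -0.13), and against the untransfected knockout at 0.05 (-0.05 to 0.15). The ratio of knockout to wild type was 0.05 (-0.06 to 0.15). The related genes Trp63 and Trp73 were not measured in any comparison: Trp63 had 15, 3, 4 and 7 counts, and Trp73 had 1 count in wild-type cells and 0 in the others, where a count of 0 allows up to 3.

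Mdm2, at chr10:117688875-117710758, was lower in the wild-type library than in the knockout-cell libraries. With 1 wild-type library, genotype cannot be told apart from culture. Its level was 84.1 TPM in wild-type cells, 114 in the knockout, 113 with the negative control and 115 with the mimic. The 3 knockout-cell libraries were nearly equal and all above wild type. The log2 ratio of knockout to wild type was 0.56 (0.48 to 0.64), that of mimic to negative control 0.03 (-0.04 to 0.09), and that of negative control to untransfected knockout -0.04 (-0.11 to 0.03). The ratio of Mdm2 to Trp53 in TPM was 0.779 in wild-type cells, 1.12 in the knockout, 0.897 with the negative control and 1.06 with the mimic. Trp53 was highest with the negative control, whereas Mdm2 was lowest in wild type and level in the rest.

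The other regulators of p53 that were examined held 19 measured genes, such as Mdm4, Atm and the checkpoint kinases. None was called in the knockout comparison, where 12.9% of all measured genes were, and 1 was past 1.5-fold, where 24.5% were. Their median log2 ratio was 0.07 against 0.01 over all measured genes. The one past 1.5-fold was Chek1, the checkpoint kinase of stalled replication, at 3.42 against 2.13 TPM (0.80, 0.34 to 1.30), named after its values were seen. Chek2, the kinase that transmits double-strand breaks to p53, had a log2 ratio of 0.56 (0.34 to 0.79). Rpl11, a ribosomal protein that binds Mdm2, had 0.53 (0.48 to 0.59), and Trp53bp2, a cofactor of p53 in the choice of target genes, had -0.50 (-0.69 to -0.30). With the mimic against the negative control none of the 19 was called, where 1.21% of all measured genes were. Their median was 0.02, against -0.01 over all.

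Ccng1 encodes cyclin G1, a p53-induced protein that feeds back on Mdm2. It lies at chr11:40748552-40755311. Its level was 318 TPM in wild-type cells, 343 in the knockout, 425 with the negative control and 371 with the mimic. The negative-control library was the highest, as for Trp53. The log2 ratio was 0.24 (0.20 to 0.28) for knockout to wild type, 0.27 (0.24 to 0.31) for negative control to untransfected knockout and -0.20 (-0.24 to -0.17) for mimic to negative control, all under 1.5-fold.

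Bax, at chr7:45461697-45466898, encodes the protein that permeabilizes the outer mitochondrial membrane in apoptosis, and 915 of its bases are shared with a transcript on the same strand that is not in the table. Its level was 312 TPM in wild-type cells, 388 in the knockout, 431 with the negative control and 377 with the mimic. Wild type was the lowest and the negative control the highest. The log2 ratio was 0.46 (0.37 to 0.55) for knockout to wild type, 0.10 (0.02 to 0.18) for negative control to untransfected knockout and -0.19 (-0.27 to -0.11) for mimic to negative control. Its ratio in TPM to the anti-apoptotic Bcl2l1 was 4.0 in wild-type cells, 3.64 in the knockout, 3.58 with the negative control and 3.08 with the mimic. The ratio to Mcl1, of the same family, was 1.56, 1.99, 2.03 and 1.81 in that order, so that wild type was the lowest. That to Bcl2 was 53.3, 53.9, 72.1 and 52.4. Bcl2l1 itself had a log2 ratio of knockout to wild type of 0.58 (0.49 to 0.68), beside the 0.46 of Bax.

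Among 12 measured genes of the BCL2 family none was called in the knockout comparison, where 12.9% of all measured genes were. Their median log2 ratio was 0.18, against 0.01 over all measured genes. Bid, which activates Bax, had 0.70 (0.55 to 0.86), and Bmf, a BH3-only protein, had -0.91 (-1.27 to -0.58). With the mimic, Bak1, the counterpart of Bax at the mitochondrion, stood at 76.8 TPM against 111 with the negative control (-0.54, -0.64 to -0.44) and had -0.33 (-0.44 to -0.23) against the untransfected knockout. Pmaip1, which encodes the BH3-only protein Noxa, stood at 59.4 TPM against 40.8 (0.53, 0.42 to 0.65), with 0.30 (0.18 to 0.41) against the untransfected knockout. Bok, another effector of the family, stood at 13.2 against 8.75 TPM (0.59, 0.24 to 0.94).

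Perp, at chr10:18845020-18857073, encodes a small membrane protein that p53 and p63 induce and that takes part in apoptosis and in desmosomes, the junctions of epithelia. Its level was 2.33 TPM in wild-type cells, 6.05 in the knockout, 6.01 with the negative control and 2.98 with the mimic, from 34, 96, 104 and 48 counts. The untransfected and negative-control knockout libraries were alike, and the mimic library lay near wild type. The log2 ratio was 1.48 (0.93 to 2.12) for knockout to wild type and -0.05 (-0.46 to 0.37) for negative control to untransfected knockout. With the mimic it was -1 (-1.54 to -0.51) against the negative control and -1.05 (-1.60 to -0.55) against the untransfected knockout. Against wild type the mimic library was at 0.43 (-0.22 to 1.12), and its interval included 0. The call against the negative control rests on a value at the 2-fold limit and was lost with DESeq2 size factors, with TPM and with a prior of 3 counts. The call against the untransfected knockout was lost with TPM.

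The knockout and wild-type libraries and the mimic and negative-control libraries share no library, so both conditions could be set side by side. Taken alone, 5.9% of measured genes were called higher in the knockout and 0.352% were called lower with the mimic than the negative control. Of 12439 genes measured in both comparisons, 3 were called higher in the knockout and lower with the mimic, which is 0.0241%. They were Perp, Entpd4 and Rpl37rt, the last pair named after their values were seen. Both have near-identical copies elsewhere, and Entpd4 had 0 counts with the mimic. At 1.5-fold, 27 genes met both conditions (0.217%), and Perp was the only 1 of the 10 among them. At that limit 11.3% of measured genes were higher in the knockout and 1.69% were lower with the mimic. Whether the overlap at either limit exceeds what the separate shares would give was not tested. The genes whose pattern over the 4 libraries was nearest to that of Perp, by the Euclidean distance between centred log2 CPM among 9456 genes, were Aif1 (distance 0.276), Pilra (0.459) and Aldoc (0.480). Aif1, a macrophage marker, stood at 20.3, 58.4, 62.7 and 33.5 TPM in wild type, knockout, negative control and mimic. The summed macrophage markers stood at 29978 TPM for the negative control and 29927 TPM for the mimic. Without Lyz2, which makes up most of that sum, they stood at 12693 TPM for the negative control and 12120 TPM for the mimic. Epithelial cells, the usual site of desmosomes, had 3 of 7 markers in the table, and these summed to 0.2 TPM in wild-type cells and between 3.93 and 5.11 TPM in the others. Nearly all of this was 1 gene, Krt19, with 2, 42, 60 and 45 counts, while Cdh1 and Krt14 had 0 to 2 counts in each library, with both at 0 in wild type and 1 of them at 0 in each other library. The part of either cell type in the level of Perp was not tested.

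Of 12 desmosome genes listed, 8 stood in the gene table and 4 were measured in the knockout comparison. Their median log2 ratio was 0.83, and 2 of the 4 were called higher, against 5.9% of all measured genes. Pkp2, which encodes plakophilin, was called higher at 8.41 against 2.36 TPM (1.94, 1.53 to 2.42), and Pkp1, named after its values were seen, at 48 against 23 counts (1.04, 0.33 to 1.86). Pkp4, a plakophilin relative, had 0.62 (0.47 to 0.77), and Jup, which encodes plakoglobin, lay on the other side at 13.9 against 20.5 TPM (-0.43, -0.61 to -0.25). Neither was called with the mimic against the negative control, where Pkp2 had a log2 ratio of 0.17 (-0.12 to 0.47). Dsp, which encodes desmoplakin, had between 5 and 14 counts in each library.

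**Figure D3:**
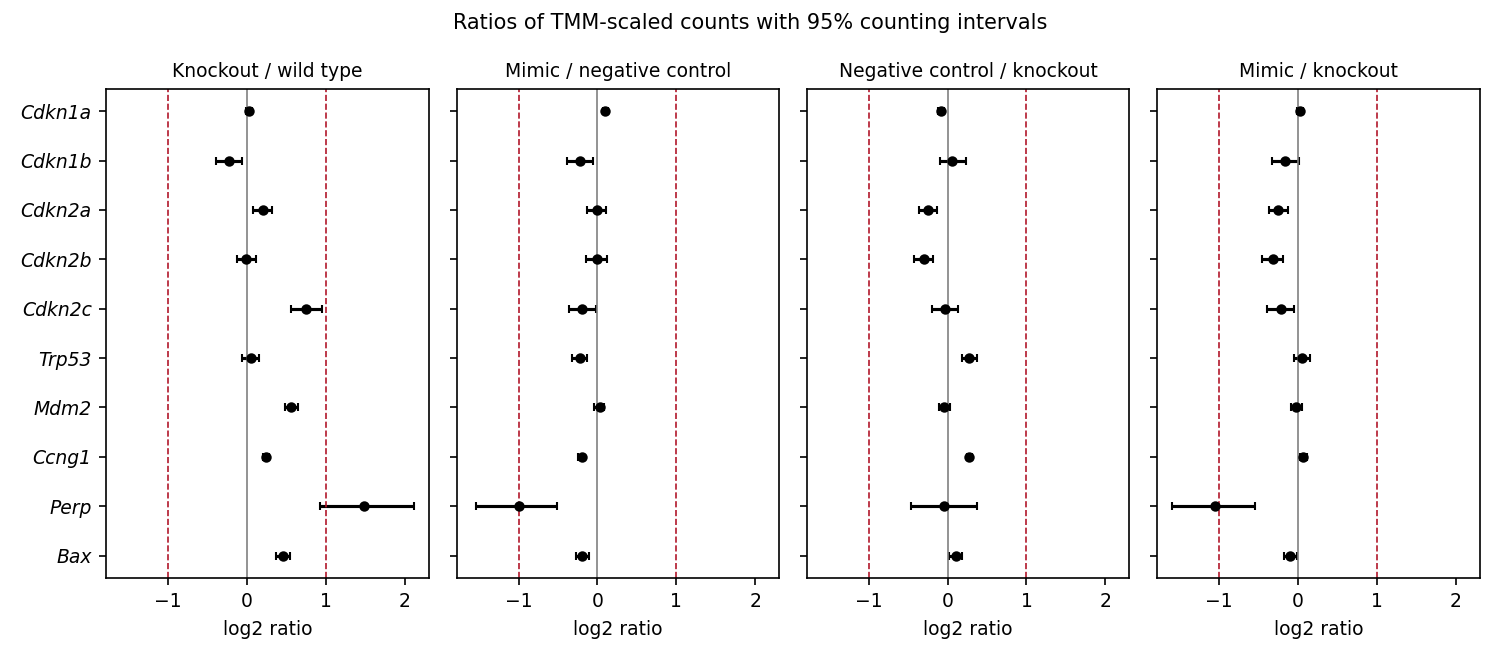
Log2 ratio of each of the 10 genes in the 4 comparisons, from scaled counts, with bars for the 95% interval of counting error, dashed lines at 2-fold and 1 library per group. Perp lies past 1 for knockout to wild type (1.48) and at or past -1 with the mimic (-1 and -1.05), while Mdm2, Cdkn2c, Bax and Ccng1 lie between 0 and 1 for knockout to wild type.

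Across the 10 genes, 8 had a log2 ratio of knockout to wild type above 0, and the median was 0.22, against 51.2% of all measured genes above 0 and a median of 0.01. The 8 include Cdkn1a and Trp53, whose intervals included 0 and whose ratios from TPM were -0.11 and -0.09, so that 6 of 10 were above 0 on that scale. With the mimic against the negative control 8 of 10 were below 0, as were 6452 of 12512 measured genes. The median was -0.19 against -0.01 over all measured genes. Of the 8, Cdkn2a and Cdkn2b (-0.01 each) had intervals that included 0. Against the untransfected knockout 7 of 10 were below 0 with the mimic, while Trp53 was at 0.05 and Ccng1 at 0.07. Intervals that excluded 0 at any size were found for 7 of the 10 in the knockout comparison, where 62.9% of all measured genes had one, and for 7 of 10 with the mimic against the negative control, where 38% did. In the comparison of negative control and untransfected knockout 6 of 10 had one, against 33.5% of all. In that of the mimic and the untransfected knockout there were 6 of 10, against 34.6%. Such shares grow with the counts of the genes, and the lowest count in any library was 10634 for Cdkn1a and 9097 for Ccng1. When the 3 knockout-cell libraries were each set against wild type, none of the 10 was past 2-fold in all of them, where 9.53% of 12876 genes were, and none was past 1.5-fold, where 18.2% were.

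A wider list of 33 genes that p53 induces was spread about evenly around wild type. All 33 were measured, and none was called in the knockout comparison, where 12.9% of all measured genes were. The median log2 ratio was -0.05, with 16 above and 17 below 0. At 1.5-fold 2 were higher and 4 lower, where 24.5% of all measured genes passed in either direction and 11.3% were higher. Gadd45a, a stress gene of growth arrest and DNA repair, was the lowest at 86.3 TPM in the knockout against 189.8 in wild-type cells (-1, -1.12 to -0.88), just inside the 2-fold limit on scaled counts. From TPM its log2 ratio was -1.14, or -1.03 after taking off the median of all measured genes, which is past the limit. Fdxr, a mitochondrial reductase, had -0.80 (-1.07 to -0.54), and Btg2, an antiproliferative gene, had -0.74 (-0.85 to -0.63). On the other side, Gpx1, an antioxidant enzyme, had 0.69 (0.61 to 0.77) and Gdf15, a secreted stress factor, had 0.65 (0.46 to 0.85), both chosen after their values were seen. Known p53 targets lay on both sides of wild type in the knockout.

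With the mimic against the negative control, none of the 33 was called, where 1.21% of all measured genes were. Of the 33, 22 lay below 0, as did 6452 of 12512 measured genes. The median was -0.03 against -0.01 over all measured genes. Trp53inp1, a p53-induced nuclear protein that promotes p53 activity, was the only 1 past 1.5-fold, at 40.1 TPM against 63.7 (-0.68, -0.76 to -0.60), and it had -0.64 (-0.73 to -0.56) against the untransfected knockout. Sesn2, a regulator of TORC1 under stress, had -0.57 (-0.69 to -0.45) against the negative control but -0.14 (-0.27 to -0.01) against the untransfected knockout, where the negative control was itself at 0.43 (0.31 to 0.55). Slc19a2, a thiamine transporter, had -0.53 (-0.67 to -0.40) against the negative control and stood at 22.8 against 32.7 TPM. Against the untransfected knockout Slc19a2 had -0.44 (-0.58 to -0.30). Pmaip1, named above with the BCL2 family and also one of the 33, lay on the other side. It had 0.53 (0.42 to 0.65) against the negative control and 0.30 (0.18 to 0.41) against the untransfected knockout. The negative control itself had 21 of the 33 above 0 against the untransfected knockout, with a median of 0.05. Of all 12532 genes measured there, 6346 were above 0.

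The kinases and cyclins that the inhibitors act on were examined in the same way. Of 11 measured, 4 were called higher in the knockout, against 5.9% of all measured genes, and none lower, with a median of 0.52. Ccnb1, the mitotic cyclin, had a log2 ratio of 1.56 (1.33 to 1.80), Ccna2, the cyclin of S phase and G2, 1.39 (1.22 to 1.58), and Cdk1, their kinase, 1.14 (0.96 to 1.33). The fourth was Ccne2 (1.14, 0.85 to 1.44), named after its values were seen. Cdk4, in contrast, had -0.25 (-0.31 to -0.18). All 15 genes of cell division were called higher in the knockout, against the same 5.9%, with a median of 1.41. With the mimic against the negative control none was called, where 1.21% of all measured genes were. All 15 lay below 0 there, as did 6452 of 12512 measured genes, with a median of -0.24 against -0.01. Some of their intervals included 0, such as those of Bub1b (-0.29 to 0.06) and Kif11 (-0.23 to 0.10). Ccnb1 and Cdk1 belong to both lists.

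Among 17 genes of the RB, E2F and DREAM complexes, which repress or drive cell-cycle transcription, 2 were called higher in the knockout, against the same 5.9%, and none lower, with a median of 0.27. E2f8, an atypical E2F that represses S-phase genes, had 1.88 (1.54 to 2.25), E2f2, an activator, 1.22 (0.91 to 1.56), and Lin9, a subunit of DREAM, 0.82 (0.46 to 1.19). Of 19 regulators of the Cdkn2a and Cdkn2b locus, 1 was called higher (1 in 19, near the 5.9% of all measured genes) and none lower. It was Id1, an inhibitor of basic helix-loop-helix factors that bears on p16INK4a transcription, at 89.4 against 12.7 TPM (2.96, 2.63 to 3.33). The histone demethylase Kdm6b, which opens the locus, had -0.93 (-1.07 to -0.79), and the repressor Tbx3 had -0.89 (-1.21 to -0.58). Of 7 regulators of p27, none was called, against 12.9% of all measured genes in either direction. Skp2, the subunit of the ligase that degrades p27, had 0.61 (0.33 to 0.90), its cofactor Cks1b 0.48 (0.29 to 0.68), and Foxo1, a transcription factor that induces Cdkn1b, -0.54 (-0.72 to -0.36).

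**Figure D4:**
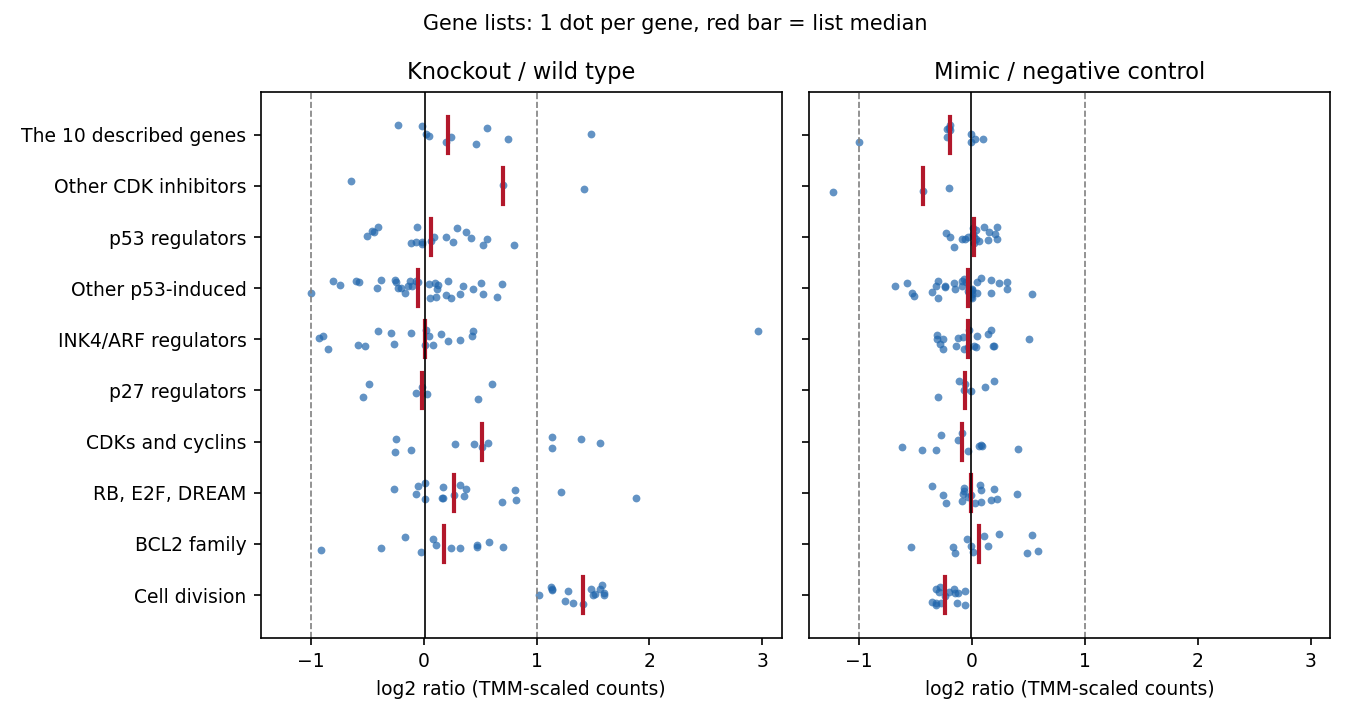
Log2 ratio of each measured gene in the lists of the cell cycle and p53 pathways, for knockout to wild type and for mimic to negative control, with a red bar at the median of each list, dashed lines at 2-fold and 1 library per group. The 15 cell division genes are all past 2-fold in the knockout (median 1.41), while the 33 other p53-induced genes spread around 0 (median -0.05).

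The sequence of miR-26a is given to show its seed and which of these genes carry a match to it. The mature miRNA, from RefSeq (GRCm38.p6), is encoded at 2 loci, chr9:119031811-119031832 (Mir26a-1) and chr10:126995543-126995564 (Mir26a-2), and the guide strand of the mimic is identical to it. Capitals mark the seed, bases 2 to 8. The related miR-26b shares this seed and is given for comparison.
mmu-miR-26a-5p and mimic guide strand: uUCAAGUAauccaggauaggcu
mmu-miR-26b-5p: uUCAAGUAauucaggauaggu

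The complement of the seed, TACTTGA, was searched on the transcribed strand of the longest annotated 3′ UTR of each protein-coding gene in GENCODE M21 (GRCm38). It was found in 1465 of 12673 genes, or 11.6%, and followed by an A (TACTTGAA, contained in the former) in 633, or 4.99%. Of the 10 genes, only Mdm2 had TACTTGA, and none had the 8-base form. Perp and Cdkn2b held only the offset match ACTTGAA, which is also 7 bases long and which 16.9% of genes have. It is the complement of bases 2 to 7 followed by an A. Below, a match means TACTTGA, so genes counted as without one can hold ACTTGAA. A match is a description and not a shown site, and the absence of these letters concerns only this window. The windows printed here are the match in Mdm2 and those of the pathway genes named with the mimic, each with its match in capitals and up to 12 bases on the 5′ side.
Mdm2, chr10:117689857-117689863, minus strand: gggctacagaagTACTTGAtttctg
Trp53inp1, chr4:11170379-11170385, plus strand: tttattgaccagTACTTGAtagcct
Slc19a2, chr1:164264621-164264627, plus strand: gtatctcctcctTACTTGAAagaat
Bak1, chr17:27019986-27019992, minus strand: ggaacctatgatTACTTGAAcccca
Ccne1, chr7:38098251-38098257, minus strand: taaggagggtgcTACTTGAcccact
Ccnd2, chr6:127128926-127128932, minus strand: ttgtattcattgTACTTGAAgaccc
Cdk6, first of 2, chr5:3528146-3528152, plus strand: gaccctgtgctcTACTTGAAgtttc
Cdk6, second of 2, chr5:3530001-3530007, plus strand: cttgctttttcaTACTTGAAattcg

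Mdm2, with its match, did not differ beyond counting error between mimic and negative control (0.03, -0.04 to 0.09). Perp, which was lower with the mimic, had no TACTTGA but held the offset match ACTTGAA. Whether either match acts in these cells was not tested. Of the 20 measured pathway genes with a match, 15 had a log2 ratio of mimic to negative control below 0 and 5 above, with a median of -0.09. Of the 108 pathway genes without one, 60 were below 0, with a median of -0.01, as over all 12512 measured genes. Intervals wholly below 0 were found for 7 of the 20 (35%), 29 of the 108 (26.9%) and 18.8% of all measured genes. Against the untransfected knockout the median of the 20 with the mimic was -0.07. Intervals wholly below 0 were found there for 30% of them, 25.9% of those without a match and 17.4% of all. The negative control itself had intervals above 0 against the untransfected knockout for 6 of the 20 (30%), beside 16.5% of all measured genes, and none below 0. The lowest with a match were Trp53inp1 (-0.68), Ccne1, a cyclin that activates Cdk2 (-0.62, -0.82 to -0.42), Bak1 (-0.54), Slc19a2 (-0.53) and Ccnd2, a D-type cyclin (-0.44, -0.46 to -0.41). Cdk6, with 2 matches of 8 bases, lay on the other side with 0.41 (0.31 to 0.51) against the negative control and 0.43 (0.32 to 0.53) against the untransfected knockout. Against the untransfected knockout Ccne1 had -0.32 (-0.53 to -0.10) with the mimic, where the negative control itself was at 0.30 (0.11 to 0.50). Ccnd2 had -0.08 (-0.11 to -0.05) with the mimic against the untransfected knockout. The level of Ccnd2 was 414 TPM with the negative control against 316 in the untransfected knockout. The 2 comparisons of the mimic share the mimic library.

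**Figure D5:**
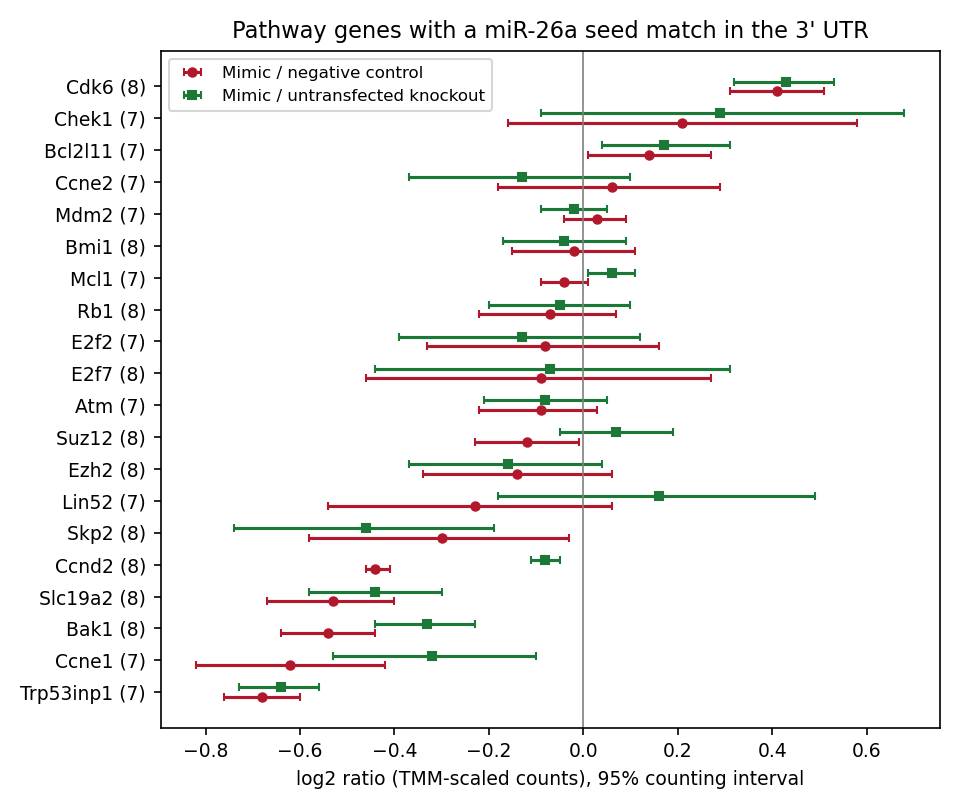
Log2 ratio of the 20 pathway genes with a match to the miR-26a seed in their 3′ UTR, for mimic to negative control and for mimic to untransfected knockout, with bars for the 95% interval of counting error and the length of the match in bases beside each name. Trp53inp1 (-0.68) and Ccne1 (-0.62) lie lowest against the negative control, Mdm2 lies at 0.03 and Cdk6, with 2 matches, at 0.41.

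Promoters of the 10 genes were searched for the p53 half-site, the 10-base motif that p53 binds as a pair, in 250 bases before and 50 after each start in RefSeq (GRCm38.p6), on both strands. It was found in 2745 of 32851 promoters, or 8.36%. Of the 10 genes 9 had a promoter in the table, and 5 of them held a half-site (Cdkn1a, Trp53, Mdm2, Ccng1 and Bax), in 5 of 12 promoters. Among the 33 other p53-induced genes, 26 had a promoter in the table and 8 of them held one. Mdm2, Bax and Ccng1, with ratios of knockout to wild type above 0, and Cdkn1a, whose interval included 0, all hold one. The promoters of these 4 are printed to show them side by side, 5′ to 3′ on the strand of the gene, with half-sites in capitals. That of Cdkn1a holds 2, the first at base -73 from the start, and its second promoter, further downstream, holds none. The half-site begins at base -186 in Mdm2, -185 in Ccng1 and -201 in Bax.
Cdkn1a, chr17:29090729-29091028, plus strand: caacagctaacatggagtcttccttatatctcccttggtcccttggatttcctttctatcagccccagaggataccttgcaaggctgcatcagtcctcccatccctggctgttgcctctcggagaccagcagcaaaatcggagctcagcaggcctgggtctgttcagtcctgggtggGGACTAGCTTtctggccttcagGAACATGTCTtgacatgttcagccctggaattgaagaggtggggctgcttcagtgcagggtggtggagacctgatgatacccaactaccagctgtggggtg
Mdm2, chr10:117710709-117711008, minus strand: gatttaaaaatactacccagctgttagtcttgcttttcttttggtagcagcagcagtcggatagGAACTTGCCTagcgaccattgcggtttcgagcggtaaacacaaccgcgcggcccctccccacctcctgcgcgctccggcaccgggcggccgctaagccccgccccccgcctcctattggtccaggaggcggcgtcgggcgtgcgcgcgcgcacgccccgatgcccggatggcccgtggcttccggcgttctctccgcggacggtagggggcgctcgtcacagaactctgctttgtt
Ccng1, chr11:40755237-40755536, minus strand: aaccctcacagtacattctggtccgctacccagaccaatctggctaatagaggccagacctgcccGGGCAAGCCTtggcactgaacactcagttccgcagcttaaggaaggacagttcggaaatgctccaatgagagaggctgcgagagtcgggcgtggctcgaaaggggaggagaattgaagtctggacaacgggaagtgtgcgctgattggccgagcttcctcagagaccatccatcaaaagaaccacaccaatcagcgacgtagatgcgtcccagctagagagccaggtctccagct
Bax, chr7:45466849-45467148, minus strand: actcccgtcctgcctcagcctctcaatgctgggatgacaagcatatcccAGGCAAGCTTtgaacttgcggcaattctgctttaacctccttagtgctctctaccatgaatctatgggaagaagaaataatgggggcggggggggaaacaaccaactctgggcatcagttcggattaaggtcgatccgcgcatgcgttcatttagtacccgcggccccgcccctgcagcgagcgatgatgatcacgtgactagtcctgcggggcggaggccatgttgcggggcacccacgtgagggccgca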

How the data were processed

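RNA of 4 cultures was sequenced, 1 library per group. FastQC, HISAT and Bowtie2, with the builds GRCm38.p6 and mm10, appear in the submitters' processing notes, which state no version or role. How genes were quantified, with which annotation and whether by strand, is not given in the sources used here. Estimated counts and TPM per gene stand in the deposited table, per the file headers. Another table gives the authors' own log2 ratios and PoissonDis false discovery rates (q-values) between pairs of libraries, per the file headers, which were used only as an alternative for the ratios.

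Estimated counts, of which about 5% have decimals, were rounded for intervals. They were scaled with TMM factors from edgeR 4.0.16 (from 0.978 in wild type to 1.02 in the negative control), and log2 ratios were taken after adding a prior of 1 count. Intervals are exact conditional binomial (Clopper-Pearson) at 95%. Reads are not independent molecules, so they cover counting error only. The floor of 3 counts sets the limit for a count of 0. No test across replicates was possible. Calls needed 2-fold, an interval excluding 0 and 1 CPM in either library.

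The 10 genes and all lists were chosen with earlier results of these data known. Named from each list were the 3 largest absolute ratios in a comparison among genes with 5 TPM or more, and for Perp the 3 nearest genes with a mean of 10 CPM or more. Alternatives were DESeq2 1.42.0 size factors, total counts, deposited TPM with a pseudocount of 0.1, other priors, filters and fold limits. The procedure was tested on simulated counts. R 4.3.3, Python 3.11.15, pandas 2.3.3 and, for intervals, scipy 1.17.1 were used.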

Additional observations from a re-analysis of the deposited data

How the results depend on the processing

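The number of the 10 genes past 2-fold depended on settings only through Perp and Cdkn2c. With the mimic against the negative control it was 1 as reported and 0 with DESeq2 size factors, 0 with deposited TPM and 0 with a prior of 3 counts, since Perp lay at the limit. With the mimic against the untransfected knockout it was 1 as reported and 0 with deposited TPM. Between knockout and wild type it was 1 as reported and 2 with a fold limit of 1.5, where Cdkn2c passed. Scaling by total counts, a prior of 0.5 count, no filter and a filter at 5 CPM left these counts as reported. Of 40 single-gene ratios, all 40 moved by less than their counting interval with DESeq2 size factors, total counts and both other priors, while 11 moved further with deposited TPM. Between knockout and wild type, 8 of 10 ratios were above 0 as reported, 9 with total counts and 6 with deposited TPM. With the log2 ratios of the authors' deposited table, an alternative chosen after seeing the data, 13 of 30 moved further and 1 reversed: Cdkn1a, negative control to untransfected knockout, was 0.09 there and -0.08 here. No paired analysis was possible because each group had 1 library, and for the same reason no replicate could be left out. Depth limited Perp most, with 34 to 104 counts.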

Other observations

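The log2 ratios in the authors' deposited table equalled ratios of unscaled counts within 0.01 for 100% of genes with at least 10 counts in both libraries. The log2 ratio of total counts was 0.14 for negative control to untransfected knockout, -0.06 for mimic to negative control and -0.05 for knockout to wild type, so ratios in that table include these offsets. For Trp53 the authors' deposited table gives 0.44 for negative control to untransfected knockout, where scaled counts give 0.27. For Ccng1 it gives 0.44 as well, where scaled counts give 0.27, and for Cdkn2b -0.14, where scaled counts give -0.30. The false discovery rate in the authors' deposited table for Cdkn1a between knockout and wild type is 0.00610 beside a log2 ratio of 0.01 there, and it compares those 2 libraries, not the conditions.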
